A study of Mus musculus with 14 samples.

Results

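The 43 genes described here carry the symbols of the proteasome subunit families Psma, Psmb, Psmc, Psmd, Psme and Psmf, out of 24833 genes counted in hematopoietic stem cell-enriched cells of mouse bone marrow. The rule that chose them uses symbol and count alone, though it was set with earlier results of these data known. Of 49 symbols in the table that match these families followed by a digit, 4 were pseudogenes and 2, Psmb8 and Psmb9, were left out by the rule. The 43 that remained had at least 10 counts in 3 or more libraries, and no matching gene failed that minimum. The member with the fewest counts, Psme2b, had 26 to 82 counts per library. By role, 8 genes encode alpha-ring subunits of the core particle, 8 encode beta-ring subunits, 9 encode the base of the regulatory particle, and 8 encode its lid. A further 3 encode factors that help assemble the base (Psmd5, Psmd9 and Psmd10), 5 encode activators (Psme1, Psme2, Psme2b, Psme3 and Psme4), and Psmf1 encodes an inhibitor. Psmc3ip matches by spelling alone. It encodes a partner of meiotic recombination enzymes and no proteasome subunit, which leaves 42 genes of the proteasome. The symbols thus fit the label, apart from Psmc3ip.

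C57BL/6 mice were injected intraperitoneally each day with 0.5 µg of the inflammatory cytokine interleukin-1 beta (IL-1β), or with phosphate-buffered saline (PBS) in its place. SLAM cells (LSK/Flk2-/CD48-/CD150+), a bone marrow fraction rich in blood stem cells, were then sorted, and each library was made from a pool of 3 to 5 mice. There were 3 IL-1β and 3 PBS libraries at 1 day, and 4 IL-1β and 4 PBS libraries at 20 days. No group carried an allele or agent beyond these, and no age is given in the sources used here. Sorted cells are read in bulk, so a smaller number of cells with a transcript and less of it per cell cannot be told apart.

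The proteasome breaks down proteins tagged with ubiquitin. Its core particle is a barrel of stacked alpha and beta rings, with the cutting sites on a few beta subunits inside. A regulatory particle docks on the barrel ends. The ring of ATPases in its base unfolds the substrate and feeds it in, while its lid removes the ubiquitin chain. Activators encoded by the Psme genes can cap the barrel in place of the regulatory particle. Psme1 and Psme2, which form a mixed ring, and Psmb10, a beta subunit that replaces Psmb7 in the immunoproteasome, are known for their induction by interferon. In mammals the transcription factor Nfe2l1 raises the subunit genes together when the proteasome is inhibited.

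Promoters of the called genes Psme1 and Psmd2, and of Psme2 and Psmb10, which share the interferon-linked role of Psme1, are printed to show what sequence lies at these starts. They come from RefSeq (GRCm38.p6) as windows of 300 bases, 250 before and 50 after the annotated start, 5′ to 3′ on the gene's strand. Capitals mark a match to GAAANNGAAA, the core of an interferon-stimulated element, searched on both strands after the values were seen. The windows are chr14:55578244-55578543 (plus strand) for Psme1, chr14:55591052-55591351 (minus strand) for the first of 2 annotated starts of Psme2, chr8:105938343-105938642 (minus strand) for Psmb10, and chr16:20651402-20651701 (plus strand) for Psmd2.
Psme1: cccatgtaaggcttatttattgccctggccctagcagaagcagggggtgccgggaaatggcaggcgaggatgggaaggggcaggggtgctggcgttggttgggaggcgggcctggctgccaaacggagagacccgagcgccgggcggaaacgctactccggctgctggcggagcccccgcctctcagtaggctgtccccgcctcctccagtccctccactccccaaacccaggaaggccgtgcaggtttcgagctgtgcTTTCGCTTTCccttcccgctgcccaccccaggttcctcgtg
Psme2: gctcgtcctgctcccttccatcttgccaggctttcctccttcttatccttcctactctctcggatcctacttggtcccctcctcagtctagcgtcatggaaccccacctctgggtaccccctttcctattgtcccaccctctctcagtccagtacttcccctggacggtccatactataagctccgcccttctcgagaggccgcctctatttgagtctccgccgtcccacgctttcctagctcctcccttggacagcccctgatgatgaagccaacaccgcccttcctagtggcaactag
Psmb10: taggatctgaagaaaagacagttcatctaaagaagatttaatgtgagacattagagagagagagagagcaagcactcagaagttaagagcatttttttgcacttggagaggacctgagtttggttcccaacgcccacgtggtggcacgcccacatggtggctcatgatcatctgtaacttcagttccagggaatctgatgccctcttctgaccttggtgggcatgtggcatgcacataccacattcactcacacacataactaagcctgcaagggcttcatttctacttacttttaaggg
Psmd2: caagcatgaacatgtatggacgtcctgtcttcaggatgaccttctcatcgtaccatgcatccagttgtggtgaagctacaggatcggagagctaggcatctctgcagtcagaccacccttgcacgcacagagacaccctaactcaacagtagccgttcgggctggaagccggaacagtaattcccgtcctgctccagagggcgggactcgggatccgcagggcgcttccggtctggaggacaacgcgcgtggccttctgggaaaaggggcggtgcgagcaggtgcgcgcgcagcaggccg
The Psme1 window holds 1 match, TTTCGCTTTC on the opposite strand, which begins 9 bases after the start, and the 3 other windows hold none. Among 39 windows of the 36 members with an entry, 4 held this motif (10.3%, in Psmb3, Psmd4, Psmd9 and Psme1), against 3.44% of all 32851 windows. TGACNNNGC, the core bound by Nfe2l1 and Nfe2l2, was in 6 of the 39 windows (15.4%, in Psmb5, Psmb6, Psmc6, Psmd9, Psmd12 and Psme4), against 12.4% of all windows. CCAAT, the box bound by the Nfya, Nfyb and Nfyc complex, was in 13 of 39 (33.3%), against 37.4% of all windows. All were searched on both strands, and matches of different motifs may share bases. The window of the lid gene Psmd14 (chr2:61711444-61711743, plus strand) held 3 CCAAT matches. A plus-strand match that begins 4 bases after the start and a minus-strand match 7 bases after it share bases in CCAATTGG. A match describes the sequence and is not a site.

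Library totals ran from 21654896 to 29441947 counts, and the defining markers of the sort were found in every library, with Kit at 586 to 1660 CPM, Ly6a at 93.2 to 153 CPM and Slamf1 at 39.4 to 116 CPM. CPM are counts scaled to a common library total with edgeR's TMM factors, except for sums over several genes, which use library totals. The titles split the libraries into 4 naming sets, each of 1 duration and with both treatments. These are 10k (1 IL-1β and 1 PBS library) and E060216 (2 and 2) at 1 day, and E061316 (2 and 2, replicates 1 and 2) and an untagged set (2 and 2, replicates 3 and 4) at 20 days. What the tags mean is not stated, and the model held a term for the set. Replicate 3 of IL-1β at 20 days stood apart, with a summed level of 13 neutrophil genes of 2732 CPM against 97.72 to 193.4 CPM in the other 13 libraries. Over all 14 libraries Prtn3 read 87.1 to 213 CPM, and the medians of the other 12 genes were 0 to 2.45 CPM. Of 9 neutrophil genes tested, 2 rose at 20 days. Flt3 (the gene of Flk2) and Cd48, which the sort was set against, read 40.7 to 139 and 2.78 to 10.2 CPM. Among 6 stem cell and sort genes, which are Kit, Ly6a, Slamf1, Procr, Flt3 and Cd48, Slamf1, Flt3 and Cd48 rose with IL-1β at 20 days and none was called at 1 day (edgeR, adjusted p). The 10 mitosis genes followed were Mki67, Ccnb1, Ccnb2, Aurka, Aurkb, Plk1, Top2a, Cdc20, Bub1 and Cdk1. All 10 rose at 1 day and 7 of 10 rose at 20 days. Their summed level was 2461 to 2912 CPM in IL-1β libraries against 1511 to 1640 CPM in PBS libraries at 1 day, and 1561 to 1839 CPM against 1290 to 1451 CPM at 20 days. Of 10 macrophage genes tested, 3 fell at 20 days. The 11 listed summed to 44.53 to 51.79 CPM with IL-1β against 59.89 to 71.59 CPM with PBS at 1 day, and to 36.94 to 44.38 CPM against 40.51 to 75.1 CPM at 20 days, with Marco at 0 in 8 libraries. Much of that sum was Axl (16.9 to 27.5 CPM over all 14 libraries) and Cd163 (11.6 to 19.2 CPM). The medians of the other macrophage genes listed were 0 to 2.51 CPM. Of 8 erythroid genes tested, 1 rose at 1 day, and 2 rose and 1 fell at 20 days. The 10 listed summed to 1740 to 2084 CPM with IL-1β against 1862 to 2227 CPM with PBS at 1 day, and to 1490 to 1775 CPM against 1609 to 1995 CPM at 20 days. Of all 15466 genes tested, 389 (2.52%) were called higher at 1 day, and 609 were called higher and 545 (3.52%) lower at 20 days. The part of these cells and states in the results below was not tested.

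After 1 day of IL-1β, most transcripts of the core, the base and the lid stood slightly higher than with PBS. A log2 fold change above 0 was found for 41 of 43 genes, and the median was 0.20, against -0.01 over all 15466 genes tested. By naming set the median over the 43 genes was 0.29 in E060216 and 0.05 in 10k. Psmd2, the large scaffold of the base, rose, and no gene of the family fell. Psmb10 and Psme4, a nuclear activator, were the 2 genes with a value below 0. A gene was called at an adjusted p under 0.05 (edgeR quasi-likelihood F-test, Benjamini-Hochberg over all genes tested). By that rule 1 of 43 members was called higher, where 2.52% of all genes tested were called higher, so that the count is near that share. At an unadjusted p under 0.05, 17 members (39.5%) were higher, against 9.44% of all genes. The 3 IL-1β libraries lay above the 3 PBS libraries in 8 members (18.6%), against 8.75% of all genes. DESeq2 called 5 members higher (Psmc1, Psmd2, Psmd13, Psmd14 and Psmc3ip), where 5.21% of all genes it gave an adjusted p were called higher. The 8 members without overlap were Psmb7, Psmc1, Psmc6, Psmd1, Psmd2, Psmd12, Psmd14 and Psmc3ip. Of the 672 genes called at 1 day, 57.9% were higher, while upper-quartile factors gave 743 genes with 46.3% higher. Those factors moved the median of the 43 members to 0.16 and that of all genes to -0.057, and Psmd2 was still called.

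**Figure D1:**
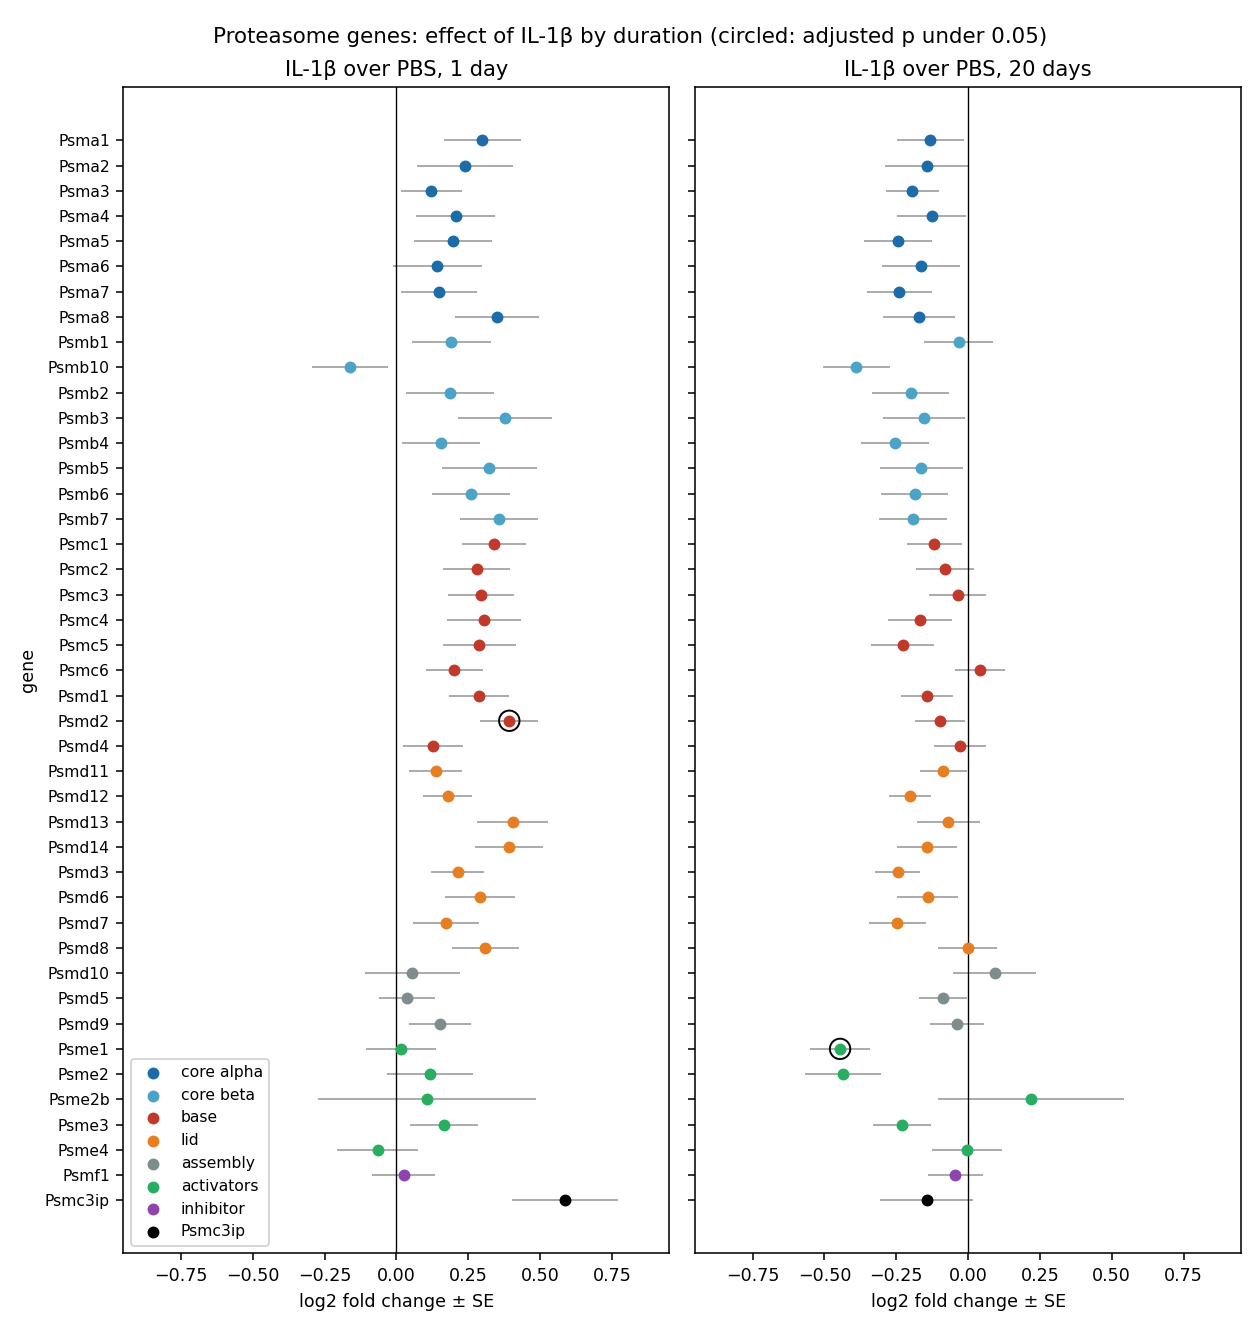
Log2 fold change (IL-1β over PBS) of the 43 genes at 1 day on the left and at 20 days on the right, by role, with bars of ± 1 SE from edgeR. At 1 day 41 genes lie right of 0, and at 20 days 40 genes lie left of 0. Circles mark Psmd2 at 1 day and Psme1 at 20 days, the members called at an adjusted p under 0.05.

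In the base, which holds the ATPases Psmc1 to Psmc6 and the scaffolds Psmd1 and Psmd2, all 9 genes had a value above 0 at 1 day, with a median of 0.29 and a range of 0.13 to 0.39. Psmd2 had 622, 593 and 506 CPM in the IL-1β libraries, against 400, 445 and 463 CPM in the PBS libraries (574 ± 60.3 against 436 ± 32.2 CPM, SD, n = 3 each). The 3 IL-1β libraries were above the 3 PBS libraries. This was a log2 fold change of 0.39 ± 0.10 (SE; 1.31-fold higher; edgeR, adjusted p = 0.0414). Psmd4, which binds ubiquitin chains, had the smallest value of the base. It stood at 199, 187 and 217 CPM in the IL-1β libraries and at 169, 161 and 228 CPM in the PBS libraries, which overlapped. Within E060216 alone, 7 of the 9 base genes were called higher, where 4.74% of all genes tested were.

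The call of Psmd2 rested on the E060216 libraries. Its log2 fold change was 0.52 within E060216 and 0.13 within 10k. Without E060216 it was 0.17 (adjusted p = 0.889). It lost the call without replicate 1 or 2 of either treatment at 1 day (adjusted p of 0.146 to 0.168), without replicate 2 of PBS at 20 days (adjusted p = 0.0581), and in a fit with no set term (adjusted p = 0.21). With a replicate block in the fit its adjusted p was 0.119. The difference of the effects between the 1-day sets was called for none of the 15466 genes tested by edgeR, the proteasome genes included, and 1579 of these genes had an unadjusted p under 0.05 for it.

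In the lid, which carries the deubiquitinating enzyme Psmd14 on its docking partner Psmd7, all 8 genes had a value above 0 at 1 day, 5 had an unadjusted p under 0.05 and none was called by edgeR. The lid's median was 0.25 and its range 0.14 to 0.40. Psmd14 had 214, 203 and 198 CPM in the IL-1β libraries, against 150, 143 and 177 CPM in the PBS libraries. The groups did not overlap, and the log2 fold change was 0.39 ± 0.12 (edgeR, adjusted p = 0.0826). Psmd13, a scaffold of the lid, had the largest value, with 204, 175 and 213 CPM in the IL-1β libraries and 144, 125 and 184 CPM in the PBS libraries. Its groups overlapped through replicate 3 of PBS, and its log2 fold change was 0.40 ± 0.13 (edgeR, adjusted p = 0.0872). Psmd11, another scaffold and the smallest of the lid, had 177, 177 and 191 CPM with IL-1β, against 154, 146 and 198 CPM with PBS.

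In the core particle 15 of 16 genes were above 0 at 1 day, none was called and 4 had an unadjusted p under 0.05, with a median of 0.20. Over the base and lid together, 17 of 17 were above 0 and 12 had an unadjusted p under 0.05, with a median of 0.29. The medians of the alpha and beta rings were 0.20 and 0.22. Psma8, an alpha subunit known from testis, had the largest value of the alpha ring, with 36.4, 30.3 and 26.6 CPM in the IL-1β libraries, against 22.9, 27.6 and 22.4 CPM in the PBS libraries. Those groups overlapped, as did the groups of Psma3, the smallest of the ring, with 161, 154 and 182 CPM with IL-1β and 143, 135 and 181 CPM with PBS. In the beta ring Psmb3, a subunit without a cutting site, had the largest value. It stood at 155, 134 and 164 CPM with IL-1β, against 104, 97.4 and 155 CPM with PBS, and replicate 3 of PBS lay as high as the IL-1β libraries. The cutting subunits Psmb5, Psmb6 and Psmb7 had log2 fold changes of 0.32, 0.26 and 0.36, and Psmb10 had -0.16, with none called.

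Assembly factors, activators and the inhibitor had no call at 1 day, and none had an unadjusted p under 0.05. The assembly factors Psmd5, Psmd9 and Psmd10 had log2 fold changes of 0.04, 0.15 and 0.06. Among the activators the median was 0.11, with Psme3, a nuclear activator, highest at 0.17 ± 0.12 and Psme4 lowest at -0.07 ± 0.14. Psme3 had 397, 357 and 315 CPM with IL-1β and 310, 308 and 333 CPM with PBS, which overlapped. Psmf1 had 78.1, 82 and 83.7 CPM with IL-1β and 72.3, 89 and 78.4 CPM with PBS, a log2 fold change of 0.02 ± 0.11. Psmc3ip, the gene outside the proteasome, had the largest value of the 43, with 34.1, 32.3 and 38.7 CPM with IL-1β against 20.6, 20.2 and 30.2 CPM with PBS. It was not called (log2 fold change 0.59 ± 0.18; edgeR, adjusted p = 0.0893), and 21.2% of its exon bases lie under exons of Mlx on the opposite strand, whose reads cannot be told apart without strand.

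After 20 days of IL-1β the values lay on the other side of 0. Of 43 genes, 40 had a log2 fold change below 0, with a median of -0.14 against 0.00 over all genes tested. Psme1, which with Psme2 forms the interferon-linked activator ring, fell, and no gene of the family rose. That is 1 of 43 members called lower, where 3.52% of all genes tested were called lower, so that the count is near that share. At an unadjusted p under 0.05, 8 members (18.6%) were lower, against 10.1% of all genes. The 4 IL-1β libraries lay below the 4 PBS libraries in 3 members (6.98%: Psme1, Psmd3 and Psmd12), against 4.99% of all genes. DESeq2 called 5 members lower (Psmb10, Psmd3, Psmd12, Psme1 and Psme2), where it called 6.02% of genes lower. Psmc6, Psmd10 and Psme2b were the genes with a value above 0.

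Among the activators, Psme1 had 310, 344, 300 and 271 CPM in the IL-1β libraries, against 369, 367, 431 and 512 CPM in the PBS libraries (306 ± 29.9 against 419 ± 68.2 CPM, SD, n = 4 each). The groups did not overlap, and the untagged PBS libraries were the highest. The log2 fold change was -0.45 ± 0.11 (1.36-fold lower; edgeR, adjusted p = 0.0196). Psme2, its partner in the ring, had 147, 174, 129 and 120 CPM in the IL-1β libraries and 168, 169, 193 and 241 CPM in the PBS libraries. Replicate 2 of IL-1β lay above replicates 1 and 2 of PBS, and the value of -0.43 ± 0.13 was not called (edgeR, adjusted p = 0.0609). Both genes lie close together on chromosome 14 of GRCm38, Psme1 at chr14:55578123-55581529 on the plus strand and Psme2 at chr14:55587441-55591113 on the minus strand (GENCODE M21). The transcript of Psme2b on chromosome 11 is 99.4% identical to that of Psme2 over 794 bases, so the split of reads between them is uncertain. Psme2b had 720 counts over all 14 libraries, against 63517 for Psme2.

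None of the other 3 activators was called at 20 days. Psme3 had 274, 299, 229 and 199 CPM with IL-1β and 309, 292, 312 and 250 CPM with PBS, which overlapped (-0.23 ± 0.10; edgeR, adjusted p = 0.217). Psme4 had 54.8, 54, 52.1 and 64.4 CPM with IL-1β and 58.9, 67.1, 57 and 44 CPM with PBS, a log2 fold change of 0.00 ± 0.12. Psme2b had 2.94, 2.09, 2 and 2.58 CPM with IL-1β and 2.03, 1.76, 2.47 and 2.01 CPM with PBS. Its error was the widest of the family (0.22 ± 0.32). The summed level of the 5 activators divided by that of the 16 core genes was 0.288, 0.293, 0.31 and 0.291 in the IL-1β libraries, against 0.347, 0.344, 0.348 and 0.294 in the PBS libraries at 20 days. The PBS libraries were the higher ones apart from replicate 4.

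The call of Psme1 also moved with single libraries. It was lost without replicate 3 (-0.425; adjusted p = 0.0553) or replicate 4 (-0.375; adjusted p = 0.0643) of IL-1β, in a fit with no set term (adjusted p = 0.0937), in a fit on the 20-day libraries alone (adjusted p = 0.0574) and without E060216 (adjusted p = 0.055). With a replicate block in the fit its adjusted p was 0.0638. Replicate 3 is the library with the high neutrophil sum, and Psme1 at 300 CPM there lay between the other IL-1β libraries.

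In the core particle, 16 of 16 genes had a value below 0 at 20 days, none was called and 2 had an unadjusted p under 0.05. The median was -0.17 in the alpha ring and -0.19 in the beta ring. Psmb10 had the lowest value, with 124, 146, 161 and 130 CPM in the IL-1β libraries against 164, 153, 174 and 250 CPM in the PBS libraries. Replicate 3 of IL-1β lay above replicate 2 of PBS. The log2 fold change was -0.39 ± 0.12 (edgeR, adjusted p = 0.0555), and Psmb10 had a value below 0 in each of the 4 naming sets. Psmb8 and Psmb9, which the rule left out of the members, had log2 fold changes nearer to 0. They were -0.20 ± 0.12 for Psmb8 (edgeR, adjusted p = 0.374) and -0.07 ± 0.11 for Psmb9 (adjusted p = 0.812). Within E061316 Psmb8 and Psmb9 stood at 0.12 and 0.26, and within the untagged set at -0.51 and -0.40. Psma5, lowest of the alpha ring, had 124, 133, 103 and 103 CPM with IL-1β and 122, 126, 136 and 164 CPM with PBS. Psma4, highest of that ring, had 159, 163, 137 and 130 CPM with IL-1β and 141, 143, 163 and 199 CPM with PBS. Psmb1, a beta-ring subunit with no cutting site, was the nearest to 0 at -0.03 ± 0.12. In Psma5 and Psma4 the first 2 IL-1β libraries lay near or above the PBS libraries of their set and the last 2 below those of theirs.

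The base and lid had medians of -0.10 and -0.14 at 20 days and no call, with 0 base and 3 lid genes at an unadjusted p under 0.05. Psmd3, a scaffold of the lid, had 210, 217, 199 and 186 CPM with IL-1β against 236, 227, 241 and 257 CPM with PBS. Psmd12, another scaffold, had 167, 155, 147 and 152 CPM with IL-1β against 181, 173, 185 and 174 CPM with PBS. Neither overlapped between groups, with log2 fold changes of -0.25 ± 0.08 (edgeR, adjusted p = 0.0784) for Psmd3 and -0.20 ± 0.07 (adjusted p = 0.126) for Psmd12. Psmd7 had 212, 214, 194 and 178 CPM with IL-1β and 223, 203, 254 and 271 CPM with PBS, a value of -0.25 ± 0.10 that was not called, and Psmd8 stood at 0.00 ± 0.10. In the base Psmc5 was lowest at -0.23 ± 0.11 and Psmc6 highest at 0.04 ± 0.09, both ATPases and neither called. The assembly factors were Psmd5 at -0.09, Psmd9 at -0.04 and Psmd10 at 0.09, and Psmf1 stood at -0.04 ± 0.10.

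**Figure D2:**
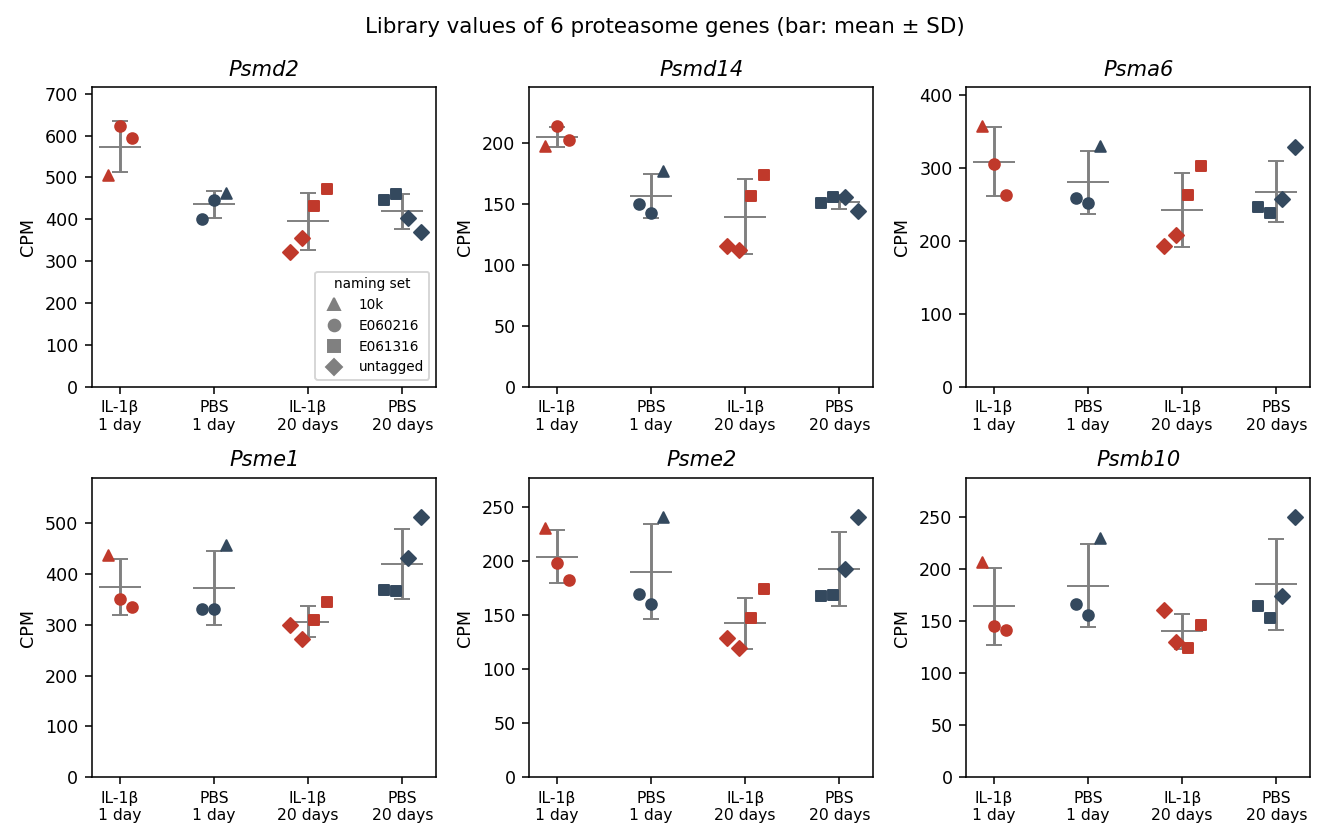
CPM of 6 proteasome genes in each library (points, shaped by naming set) with the mean ± SD of each group, IL-1β left of PBS at each duration. The 3 IL-1β libraries of Psmd2 at 1 day (506 to 622 CPM) lie above the 3 PBS libraries (400 to 463 CPM), and the 4 IL-1β libraries of Psme1 at 20 days (271 to 344 CPM) lie below the 4 PBS libraries (367 to 512 CPM).

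The 20-day values had opposite signs in the 2 naming sets for most of the family. In the untagged libraries 41 of 43 genes were below 0, with a median of -0.39, and 25 were called lower (58.1%), where 7.1% of all genes tested were called lower in that set. In E061316 32 of 43 were above 0, with a median of 0.09, and none was called by edgeR, where 2.87% of all genes were called in either direction. An unadjusted p under 0.05 in either direction was found there for 5 of the 43 members and for 2630 of all 15466 genes, so that the 5 do not stand out. The core particle had a median of -0.52 in the untagged set, with 14 of 16 genes called lower, and of 0.15 in E061316. The base and lid together had medians of -0.29 and 0.08 in these sets, with 7 of 17 genes called lower in the untagged set. With the untagged libraries left in and E061316 left out, 16 members were called lower at 20 days, where 4.56% of all genes were. The 8 mitochondrially encoded transcripts followed were mt-Nd1, mt-Nd2, mt-Nd3, mt-Nd4, mt-Nd5, mt-Nd6, mt-Co1 and mt-Cytb. They also lay below 0 in the untagged set, with a median of -0.70 and 3 called lower. Their median was -0.02 in E061316 with none called (0 at an unadjusted p under 0.05). In E060216 at 1 day it was -0.61 with 3 called lower, where 419 of all 15466 genes were called lower. They summed to 2938 and 2502 CPM with IL-1β against 3359 and 3777 CPM with PBS in the untagged set, and to 3321 and 3525 CPM against 3430 and 3290 CPM in E061316. Their part in the proteasome values was not tested. Psma6, an alpha-ring subunit, shows how members read by set. It had 263 and 303 CPM with IL-1β against 246 and 238 CPM with PBS in E061316, and 193 and 208 CPM with IL-1β against 257 and 329 CPM with PBS in the untagged set. IL-1β libraries were the higher ones in the first set and the lower ones in the other.

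The difference between the 2 sets' effects was tested in a fit with an effect per set, after the values were seen. It was called for 1 member, Psmb2, a beta-ring subunit without a cutting site, where 0.168% of all genes tested were called in either direction. Psmb2 had 183 and 176 CPM with IL-1β against 249 and 298 CPM with PBS in the untagged set, and 238 and 243 CPM with IL-1β against 207 and 209 CPM with PBS in E061316. Its untagged effect minus its E061316 effect was -0.81 ± 0.13 (edgeR, adjusted p = 0.0465). Of the 43 genes, 42 had a difference below 0, and 31 (72.1%) were lower at an unadjusted p under 0.05, against 10% of all genes. By class, 15 of 16 core genes, 8 of 9 base genes and 5 of 8 lid genes were above 0 in E061316 and below 0 in the untagged set, and 0 of 5 activators were. The genes below 0 in both sets were Psme1, Psme2 and Psme3 among the activators, Psmb10, Psmd2, Psmd3, Psmd5, Psmd7, Psmd12 and Psmf1. Psme1 stood at -0.17 in E061316 but at -0.72 among the untagged libraries, and Psme2 at -0.07 and -0.80. Without the untagged libraries, the median of the 43 genes at 20 days was 0.09 and no member was called, with Psme1 at -0.17 (adjusted p = 0.299).

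At 1 day the median was 0.29 in E060216, with 40 of 43 genes above 0 and 16 called higher (37.2%), where 4.74% of all genes were called higher there. Those 16 were Psma1, Psmb3 and Psmb7 of the core, 7 base genes (Psmc1, Psmc2, Psmc3, Psmc4, Psmc5, Psmd1 and Psmd2), 5 lid genes (Psmd3, Psmd6, Psmd8, Psmd13 and Psmd14) and Psmc3ip. In 10k, with 1 library of each treatment and the spread borrowed from the other sets, the median was 0.05 and no member was called, where 0.0129% of all genes were called. Of the 43 genes, 28 were above 0 in both 1-day sets.

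**Figure D3:**
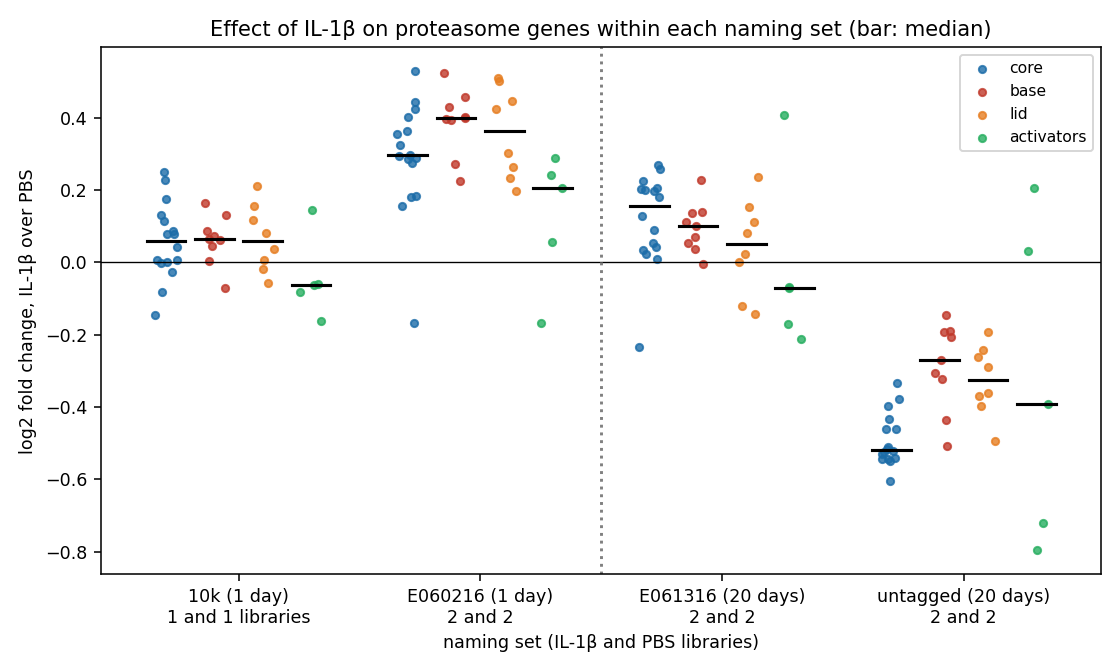
Log2 fold change (IL-1β over PBS) of the core, base, lid and activator genes within each naming set, 1 point a gene with a bar at the class median; errors are not drawn. Core medians are 0.06 in 10k, 0.30 in E060216, 0.15 in E061316 and -0.52 for untagged libraries. The dotted line parts 1 day from 20 days.

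Levels were also summed by library. The 16 core genes summed to 3177, 2908 and 3698 CPM in the IL-1β libraries at 1 day, against 2819, 2550 and 3475 CPM in the PBS libraries. At 20 days they summed to 2775, 2928, 2356 and 2352 CPM in the IL-1β libraries, against 2639, 2591, 2870 and 3655 CPM in the PBS libraries. Replicate 3 of both 1-day groups (set 10k) and replicate 4 of PBS at 20 days were the highest, and the untagged IL-1β libraries the lowest. The 17 base and lid genes summed to 4256, 4036 and 4345 CPM with IL-1β at 1 day, against 3403, 3335 and 4020 CPM with PBS. The lowest IL-1β sum (replicate 2) lay only just above the highest PBS sum (replicate 3). Their TMM factors, not applied to sums, were 0.967 and 0.961. With these factors applied the order of these 2 libraries turns round, so that the 1-day groups overlap on the scale used for single genes. At 20 days the base and lid genes summed to 3458, 3594, 2937 and 2986 CPM with IL-1β, against 3406, 3380, 3419 and 3747 CPM with PBS, with overlap. The core sum divided by the base and lid sum was 0.851 and 0.865 in the 10k libraries with IL-1β and PBS, and 0.975 in replicate 4 of PBS at 20 days, against 0.721 to 0.839 in the other 11 libraries. These 3 libraries also had the lowest summed level of the 6 stem cell and sort genes, 888.1, 1090 and 967.7 CPM, against 1325 to 2012 CPM in the other 11. Most of that sum was Kit, at 633, 835 and 586 CPM against 1110 to 1660 CPM. Slamf1 read 46.3, 57 and 39.4 CPM against 55.5 to 116 CPM. Ly6a (110, 116 and 143 CPM) and Procr (56.6, 75.6 and 111 CPM) lay within the range of the other 11. The sum also holds Flt3 and Cd48, which the sort was set against. The part of these levels in the results was not tested. Without replicate 4 of PBS at 20 days the median of the 43 genes was -0.075 at 20 days, with 32 below 0, and Psme1 was still called (-0.34; edgeR, adjusted p = 0.023). Without it 7 members were called higher at 1 day, where 4.93% of all genes tested were (758 genes, against 389 with it). These were Psmc1, Psmc3, Psmd2, Psmd8, Psmd13, Psmd14 and Psmc3ip, and all libraries share 1 estimate of the spread.

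**Figure D4:**
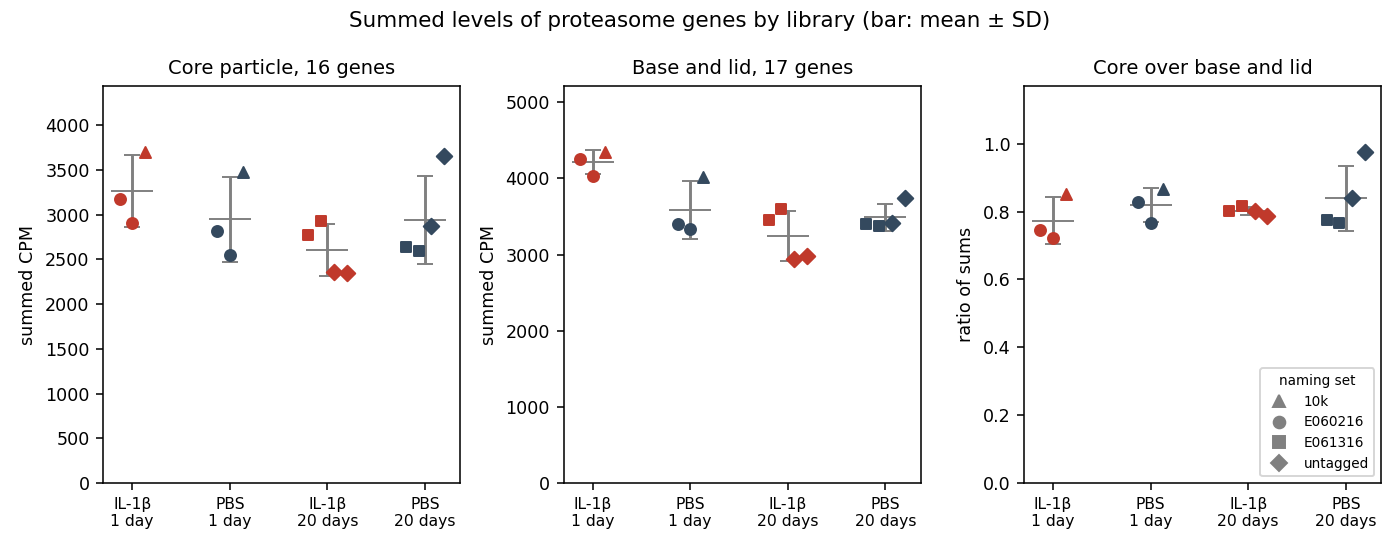
Summed CPM of the 16 core genes, of the 17 base and lid genes, and the ratio of these sums, by library (points, shaped by naming set) with the mean ± SD of each group. At 1 day the base and lid sums, on library totals, are 4036 to 4345 CPM with IL-1β and 3335 to 4020 CPM with PBS, nearly touching. PBS replicate 4 at 20 days has the highest ratio, 0.975.

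The effect at 20 days minus the effect at 1 day was tested in the same fit. It was called for 0 of 43 genes, where 2.14% of all genes tested were called in either direction. At an unadjusted p under 0.05, 27 members (62.8%) had a lower effect at 20 days, against 9.54% of all genes. DESeq2 called 9 of the 43 lower, where it called 4.56% of genes lower. The median difference was -0.40 against 0.02 over all genes, with class medians of -0.40 in the core, -0.43 in the base, -0.42 in the lid and -0.40 in the activators. The smallest adjusted p-values by edgeR were 0.0647 for Psmd3, with a difference of -0.46 ± 0.12, and 0.0694 for Psmd2, with -0.49 ± 0.13. Each duration has its own PBS libraries, and the durations never share a naming set, so that duration and set cannot be told apart here. Without the untagged set the median difference was -0.15.

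Levels between genes were compared per kilobase of exon (GENCODE M21, which may differ from the annotation used in counting), by the median over the 14 libraries. The length is the union of all annotated exons of a gene and not that of 1 transcript. The order below therefore depends on how many exon bases are annotated. Psma7 has 3071 such bases and Psma6 has 1234, while PBS libraries at 20 days had means of 342 and 268 CPM. Psma6 was highest at 212 CPM per kb (156 to 289), followed by Psmb2 at 200 CPM per kb (146 to 260) and Psme1 at 157 CPM per kb (123 to 232). These ranges over libraries overlap. The genes were read in the same libraries, so that overlap alone does not tell whether their order holds within each library. Class medians were 84.3 CPM per kb in the alpha ring, 72 in the beta ring, 84.4 in the base, 53.7 in the lid, 97.5 in the activators and 27.9 in the assembly factors. The lowest were Psme2b at 2.4, Psme4 at 6.63, Psmd9 at 7.75, Psma8 at 10.6 and Psmf1 at 11.5 CPM per kb. In 10 of the 43 genes exons overlap a gene on the opposite strand, with the largest shares in Psmd9 (25.5% of exon bases), Psmc3ip (21.2%), Psmb7 (11.8%, with Nek6) and Psmd13 (10.1%, with Sirt3).

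Of 39 related genes tested, which cover assembly chaperones, partner subunits, ubiquitin and shuttle proteins and transcription factors, 1 rose at 1 day, where 2.52% of all genes were called higher, and 1 fell at 20 days, where 3.52% were called lower. A count of 1 in 39 is near those shares in either direction, and the called genes are given as single values. The medians were 0.05 and -0.09. Uchl5, a deubiquitinating enzyme that docks on the base, had 233, 215 and 198 CPM in the IL-1β libraries against 141, 147 and 167 CPM in the PBS libraries at 1 day, without overlap. Its log2 fold change was 0.51 ± 0.11 at 1 day (edgeR, adjusted p = 0.0211), and its 20-day effect was lower than its 1-day effect by a difference of -0.62 (adjusted p = 0.0497). Duration and naming set cannot be told apart in that difference either. Ubqln4, a shuttle that carries ubiquitin-tagged proteins to the proteasome, had 119, 127, 114 and 111 CPM in the IL-1β libraries against 156, 150, 149 and 150 CPM in the PBS libraries at 20 days. Those groups did not overlap either, with a log2 fold change of -0.36 ± 0.09 (edgeR, adjusted p = 0.0204). Pomp, which helps complete the core particle, had log2 fold changes of 0.01 ± 0.13 at 1 day and -0.27 ± 0.11 at 20 days (edgeR, adjusted p = 0.99 and 0.186). Nfe2l1 had a log2 fold change of -0.32 ± 0.13 at 1 day (edgeR, adjusted p = 0.205).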

How the data were processed

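RNA of pooled mice was amplified with SMARTer chemistry and read from single ends after a Nextera XT preparation, per the labels' protocols. That chemistry does not mark strand. Reads were amplified without molecular identifiers, and counting floors (3 counts, 0.102 to 0.139 CPM per library) cover counting error only. The deposited file, made by the authors, holds whole-number counts for each gene symbol. Per the submitters' processing notes, which give no roles, the tools were HTSeq 0.6.1, STAR 2.4.2a, DESeq2 1.12.3, Trimmomatic 0.32, Cuffdiff and Cufflinks 2.0.2, and the build was GRCm38.p4. The strand setting and annotation of the counting are not given in these sources. The 18 replicate pairs differed beyond sampling noise (chi-square per degree of freedom 10.7 to 74.4).

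Counts of all 14 libraries were fitted in edgeR 4.0.16 (R 4.3.3) with TMM factors, filterByExpr (minimum count 10; 15466 of 24833 genes kept), an IL-1β effect per duration, a naming-set term and a two-sided quasi-likelihood F-test (robust), with 8 residual degrees of freedom. All 43 members passed the filter. Effects per set came from a fit with 6 residual degrees of freedom. P-values were adjusted by Benjamini-Hochberg over all genes tested (threshold 0.05) and measure the spread between libraries. Standard errors are the log2 fold change over the square root of F and are approximate. DESeq2 1.42.0, other factors, no filter, no set term, a replicate block, each duration alone, and leaving out libraries or sets were alternatives; leaving out sets, the test between sets and the interferon motif were chosen after seeing the data. The script was tested on simulated counts.

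The members and lists were chosen with earlier results of these data known. Per-library values are given for called members and for the largest and smallest change of a class, not all of which are printed, and for called related genes. Psme2, Psmb2, Psmd3, Psmd12, Psmd14 and Psmc3ip (and, for a promoter or per-set values, Psma6) were chosen after their values were seen, as were the related genes Pomp, Nfe2l1, Psmb8 and Psmb9. Levels per kilobase and positions used GENCODE M21 (GRCm38), in which all 43 symbols were found.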

Additional observations from a re-analysis of the deposited data

Results flagged for a closer look

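Psmb2 was singled out because its effect differed between the 2 naming sets at 20 days by a test of the difference itself: the untagged effect minus the E061316 effect was -0.812 on the log2 scale (edgeR, adjusted p = 0.0465). IL-1β libraries lay below PBS libraries in the untagged set and above them in E061316, with 2 libraries of each treatment per set.

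Uchl5 was singled out because its effect differed between durations: the 20-day effect minus the 1-day effect was -0.618 (edgeR, adjusted p = 0.0497). By naming set its effect was 0.24 in 10k, 0.64 in E060216, 0.06 in E061316 and -0.29 in the untagged set. The durations never share a set, so that duration and set cannot be told apart here. At 1 day the values of Uchl5 did not overlap between treatments. At 20 days it read 160, 166, 144 and 116 CPM with IL-1β and 158, 154, 158 and 159 CPM with PBS.

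The values of the members followed by library, in groups of 4 libraries at 20 days, were also searched by Dixon's criterion for a library far from the other 3, and 0 of 58 groups held one.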

How the results depend on the processing

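Limits are few libraries per set and an unknown meaning of the sets; libraries of 21654896 counts or more leave counting error small for all members but Psme2b. DESeq2 called 1406, 1815 and 1181 genes and 5, 5 and 9 members at 1 day, at 20 days and for the difference. Without a set term the counts were 290, 525 and 23 genes and 0 members at each duration. A replicate block gave 383, 672 and 23 genes and 0 members at each duration. Whether shared replicate numbers pair the libraries was not settled. Same-numbered libraries deviated together with correlations of -0.03, 0.123 and 0.184 at 1 day and 0.018, 0.274, 0.112 and 0.063 at 20 days. Libraries of unlike number gave -0.179 to 0.103 at 1 day and -0.237 to 0.093 at 20 days. Same-numbered libraries also share a naming set, and deviations from the mean of so few libraries cannot decide this. With the libraries of 1 duration alone, 1200 genes and 6 members were called at 1 day, and 750 and 0 at 20 days. The member median at 20 days was 0.089 within E061316 and -0.391 within the untagged set.

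Leaving out 10k gave 358 genes and 2 members for the difference. Leaving out E060216 gave 2, 729 and 0 genes and 0 members at each duration. Leaving out E061316 gave 773, 1247 and 1433 genes, 3, 16 and 27 members, and medians of -0.392 at 20 days and -0.648 for the difference. Leaving out the untagged set gave 1519, 543 and 80 genes, 11 members at 1 day and 0 at 20 days, and medians of 0.089 at 20 days and -0.146 for the difference. Leaving out 1 library at a time gave 228 to 1244, 648 to 1156 and 34 to 604 genes, 0 to 7, 0 to 3 and 0 to 5 members, and medians of 0.149 to 0.296, -0.228 to -0.075 and -0.512 to -0.316. Psmd2 at 1 day then ranged from 0.312 to 0.526 and Psme1 at 20 days from -0.535 to -0.343. The causes were not tested.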
